A study of Mus musculus with 6 samples.

Results

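Small RNA-seq counts were examined for 10 mature microRNAs (miRNAs) of 3 loci that are paralogs of the miR-17-92 cluster or share its seeds. They were chosen by exact name from the 1915 mouse miRNAs listed in each library. They are both arms of miR-106b, miR-93 and miR-25, which form the miR-106b-25 cluster (mmu-miR-106b-5p, mmu-miR-106b-3p, mmu-miR-93-5p, mmu-miR-93-3p, mmu-miR-25-3p and mmu-miR-25-5p), the members mmu-miR-106a-5p, mmu-miR-20b-5p and mmu-miR-363-3p of the miR-106a-363 cluster, and mmu-miR-92b-3p. The mouse prefix mmu is left out below where no confusion arises. All 10 had at least 1 read in each of the 6 libraries and were kept by the filter on low counts. The libraries were made from whole brain of wild-type C57BL/6 mouse embryos at E15.5, 3 from females and 3 from males, and each library held pooled RNA of 2 to 3 embryos, so that a replicate is a pool and not an embryo. No group received a treatment, and the question was whether miRNA levels differ between the sexes at this stage.

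A miRNA precursor is a hairpin from which Dicer cuts a duplex, and one strand of the duplex, the 5p or the 3p arm, is usually kept in an Argonaute protein while the other is degraded. The kept strand finds target mRNAs mainly through its seed, the bases near its 5' end, so that miRNAs with the same seed are grouped as a family with overlapping targets. The miR-17-92 cluster and its paralogs are known for promoting cell cycle progression and survival, and in the embryonic cortex they are expressed in neural progenitors. The miR-106b-25 cluster is carried in Mcm7, which encodes a subunit of the DNA replication helicase, and has been linked to proliferation of neural stem cells.

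In mm9, Mir106b lies at chr5:138606965-138607046, Mir93 at chr5:138606751-138606838 and Mir25 at chr5:138606549-138606632, all on the reverse strand and within a span of 498 bp. All 3 hairpins are inside Mcm7 (chr5:138605811-138613650, reverse strand). Mir106b is intronic in both annotated Mcm7 transcripts that span it, and Mir93 and Mir25 are each exonic in 1 of the 3 that span them and intronic in the others. On the X chromosome, Mir106a is at chrX:50095680-50095744, Mir20b at chrX:50095290-50095369 and Mir363 at chrX:50094870-50094944, on the reverse strand within 875 bp and outside any annotated host gene. Mir92b, at chr3:89031038-89031120 on the reverse strand, overlaps no other annotated gene and lies 28 bp from Mtx1.

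The mature sequences are shown because they set which members can share targets and which could be mistaken for each other when reads are mapped. They are RefSeq entries from a table of build GRCm38.p6, written 5' to 3', and the capitals mark the seed, bases 2 to 8. The first 4 carry the seed of miR-17-5p.
miR-106b-5p: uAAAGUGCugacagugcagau
miR-93-5p: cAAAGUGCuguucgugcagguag
miR-106a-5p: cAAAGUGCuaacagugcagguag
miR-20b-5p: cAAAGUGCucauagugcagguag

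The next 3 carry another seed, that of miR-92a-3p.
miR-25-3p: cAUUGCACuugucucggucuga
miR-363-3p: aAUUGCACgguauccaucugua
miR-92b-3p: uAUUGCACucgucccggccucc

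The 3 remaining members are the other arms of the miR-106b-25 precursors, and no pair of them shares a seed.
miR-106b-3p: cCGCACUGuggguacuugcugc
miR-93-3p: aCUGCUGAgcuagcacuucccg
miR-25-5p: aGGCGGAGacuugggcaauugc

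A pair of relatives outside the 10 are shown for comparison.
miR-17-5p: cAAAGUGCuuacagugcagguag
miR-92a-3p: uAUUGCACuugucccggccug

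With positions counted from 1 at the 5' end, miR-106a-5p differs from miR-17-5p by A10U alone, where the member's base is written first. Likewise, miR-20b-5p differs from miR-17-5p by C10U and U12C. Over the 21 bases that both have, miR-92b-3p differs from miR-92a-3p by C10U and C21G. In contrast, miR-106b-5p and miR-93-5p share the seed and are identical at 16 of 21 bases, and miR-363-3p matches miR-25-3p at 9 of 22 bases. Reads of miR-106a-5p are thus 1 base apart from those of a more abundant relative, and how mapping errors or ambiguous reads were divided is not given in the sources used here.

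The total count per library was between 14802675 and 59362011 reads. Female library 2 stood apart, with the highest total and the fewest miRNAs detected, and results that depend on it are given with and without it. All 5 brain markers (miR-9-5p, miR-9-3p, miR-124-3p, miR-128-3p and miR-137-3p) were read in every library, with a summed level of 226135 to 267219 CPM (reads scaled to a library total of 1000000) in females and 180342 to 208825 CPM in males, and 2 of the 5 were female-biased in that test. Markers of other tissues were higher in males. The 3 skeletal muscle markers summed to 388 to 1166 CPM in females and 5452 to 6099 CPM in males, with 3 of 3 male-biased in that test. The 6 epithelial markers, 5 of which were read in every library, summed to 429 to 1133 CPM against 7990 to 8284 CPM (5 of 6 male-biased). The 3 mesenchymal markers summed to 2597 to 8788 CPM against 14798 to 17213 CPM (3 of 3), and the 3 red blood cell markers to 646 to 1354 CPM against 1595 to 1972 CPM (1 of 3). Their part in the differences reported here was not tested. In bulk tissue, fewer cells of a type and less RNA per cell cannot be told apart.

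The levels of the 10 members spanned more than 3 orders of magnitude. Levels are CPM of mature miRNAs of 21 to 23 bases and were not scaled by length. By mean CPM over the 6 libraries (± SD, n = 6), miR-25-3p was the highest (12247 ± 1756) and ranked 18 among the 1915 miRNAs. It was followed by miR-92b-3p (7073 ± 1761, rank 27) and miR-93-5p (5940.2 ± 1207, rank 31), whose order held in 3 of 6 libraries only and which therefore were not separable. Then came both arms of miR-106b, with miR-106b-3p (942 ± 225, rank 103) above miR-106b-5p (503 ± 158, rank 139). Below them, miR-363-3p (123 ± 24.2) lay above miR-93-3p (94.2 ± 20.3) in 5 of 6 libraries, with a mean log2 ratio of 0.39 ± 0.51 (SD, n = 6), which is within the spread. The lowest were miR-25-5p (48.2 ± 16.0), miR-20b-5p (11.4 ± 5.90) and miR-106a-5p (5.65 ± 3.35, rank 499). Every other neighbouring pair in this order kept it in 6 of 6 libraries. Counting error was small for the 7 members with over 1000 reads in every library, with an exact 95% binomial half-width of at most 6.12%. It reached 76.9% for miR-106a-5p in male library 1, which had 8 reads. Intervals of this kind cover counting error only, since reads were not collapsed by molecular identifiers in any step described.

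**Figure D1:**
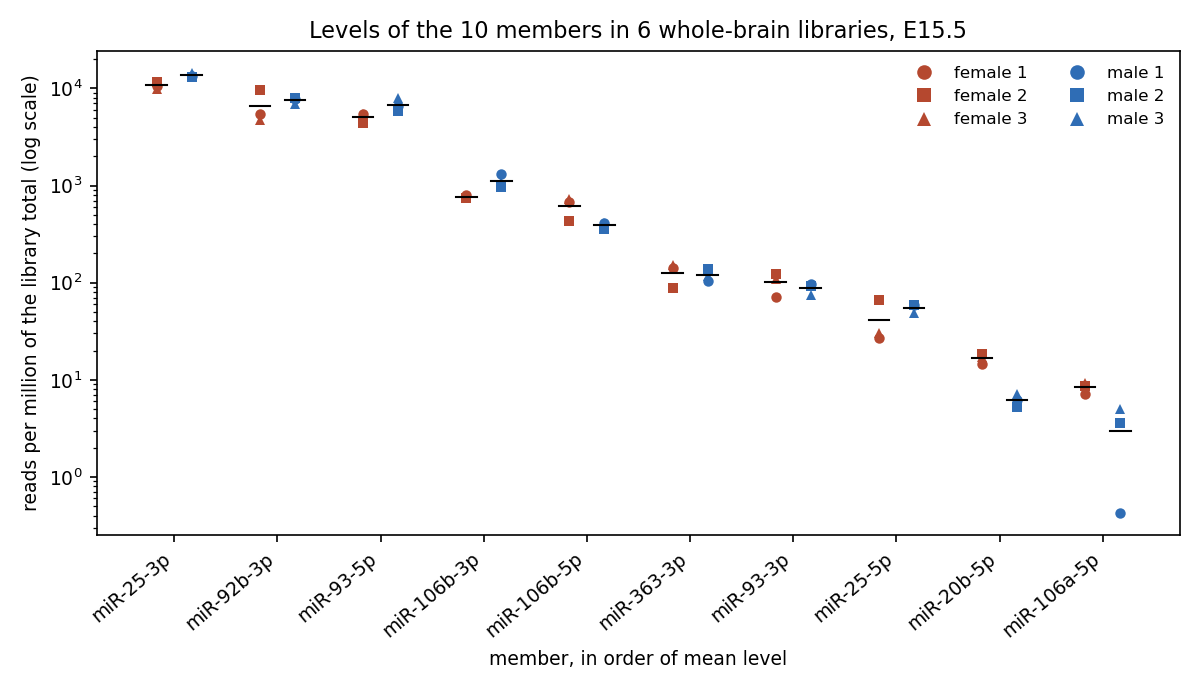
CPM of the library total (log axis) of each member in the 3 female (red) and 3 male (blue) libraries, ordered by mean level; horizontal lines are the means of each sex. miR-25-3p, miR-92b-3p and miR-93-5p sit at the top, and miR-106a-5p in male library 1 is the lowest point, at 0.428 CPM.

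Counts scaled by TMM were compared between males and females by the quasi-likelihood test of edgeR, over the 1120 miRNAs with at least 10 reads in total. Fold changes are given on the log2 scale as male over female, so that negative values are female-biased. Of the 10 members, 1 was past the threshold of an adjusted p (Benjamini-Hochberg over all miRNAs tested) of 0.05, namely miR-106b-5p, which was female-biased. Among all miRNAs tested, 8.48% were past it in either direction and 5.27% were female-biased, while 0 of 10 members and 3.21% of all miRNAs were male-biased. The count of members was 0 without female library 1, female library 3, male library 1 or male library 2, 1 without male library 3, and 3 without female library 2, a fit in which 18.3% of all miRNAs passed. Without adjustment, 3 of 10 members and 206 of 1120 miRNAs had a p below 0.05. The median log2 fold change was -0.06 over the members, with 5 below and 5 above 0, and -0.02 over all miRNAs tested. With scaling by library size only, the median over all miRNAs was 0.11, so that TMM moved fold changes toward females by more than 0.1. The libraries of the sexes did not overlap for 5 of 10 members in TMM-scaled CPM, where 23.8% of all miRNAs tested did not overlap. Of these 5, females were above males for 3 (11.9% of all miRNAs) and males above females for 2 (12.0%). In CPM of the library total, 6 of 10 did not overlap, against 23.9% of all miRNAs, with females above for 3 (8.57%) and males above for 3 (15.4%).

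Within the miR-106b-25 cluster, mmu-miR-106b-5p is the arm with the miR-17-5p seed. Its level was 675, 432 and 729 CPM in female pools 1, 2 and 3 and 414, 354 and 411 CPM in male pools 1, 2 and 3. All female libraries lay above all male libraries, but female library 2 lay close to male libraries 1 and 3. Mean levels were 612 ± 158 CPM in females and 393 ± 33.6 CPM in males (SD, n = 3 each), which gave a log2 fold change of -0.76 by edgeR (standard error 0.20, adjusted p = 0.0164). Its call rested on several libraries. The adjusted p by edgeR was 6.3e-05 without female library 2 and 0.0462 without male library 3, but 0.0739 without female library 1, 0.0700 without female library 3, 0.199 without male library 1 and 0.0565 without male library 2. It was also lost with library size only (log2 fold change -0.64, adjusted p = 0.0822). The log2 fold change was below 0 in all 18 alternatives, from -0.91 to -0.50.

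The other arm, mmu-miR-106b-3p, had a fold change of the opposite sign. Its level was 798, 750.0 and 746 CPM in female pools 1, 2 and 3, against 1314, 966 and 1080.3 CPM in male pools 1, 2 and 3. Every male library was above every female library, and the female libraries were close to one another. At a log2 fold change of 0.41 (standard error 0.19), it did not pass the threshold (adjusted p = 0.215 by edgeR). DESeq2 with 1 factor of unwanted variation estimated by RUVr was the 1 alternative in which it passed (adjusted p = 0.0181), and in that fit 19.3% of all miRNAs passed.

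Both arms are cut from 1 hairpin, shown here because the comparison of arms turns on it. The 82-base Mir106b hairpin from RefSeq is written 5' to 3' with the mature 5p and 3p arms in capitals.
Mir106b: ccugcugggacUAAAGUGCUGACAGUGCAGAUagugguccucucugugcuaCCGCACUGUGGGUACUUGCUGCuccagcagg

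The ratio of the 2 arms within a library does not depend on library size or scaling. In females, miR-106b-5p had 0.846, 0.577 and 0.977 reads per read of miR-106b-3p in libraries 1, 2 and 3. In males the ratio was 0.315, 0.367 and 0.380. The sexes did not overlap, and the ratio was 2.21-fold higher in females. The log2 difference, male minus female, was -1.15 (standard error 0.23) by limma, and its adjusted p of 0.0995 over the 254 precursors with both arms measured did not pass the threshold. The two-sided exact permutation test gave p = 0.1, the smallest value that 3 libraries against 3 allow. Without female library 2, the difference was -1.37 and its adjusted p by limma was 0.0238, in a fit in which 16 of the 254 precursors (6.30%) passed. In the other alternatives it did not pass, and leaving out each library in turn gave differences from -1.37 to -0.99. None of the 3 member precursors passed the limma test, nor did any of the 254 (0% called). In that test, 32 of the 254 had an unadjusted p below 0.05, of which 20 had a lower 5p/3p ratio in males, and in 21.7% of the 254 precursors the sexes did not overlap (13.0% with every female above every male, as for miR-106b).

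mmu-miR-93-5p, the most abundant miRNA with the miR-17-5p seed, was measured at 5490.5, 4379 and 5397 CPM in female pools 1, 2 and 3. In male libraries 1, 2 and 3 it was at 6618, 5846 and 7910.2 CPM. Each male value exceeded each female value, and female library 2 was the lowest. The log2 fold change of 0.29 (standard error 0.22) did not pass the threshold (adjusted p = 0.480 by edgeR). Its other arm, miR-93-3p, ranged from 70.4 to 124 CPM in females and from 74.4 to 96.0 CPM in males, with overlap, and its log2 fold change was -0.36 with a standard error of 0.27 (adjusted p = 0.480 by edgeR). The ratio of miR-93-5p to miR-93-3p was 78.0, 35.4 and 49.5 in females and 68.9, 63.9 and 106 in males. The sexes overlapped in this ratio, and the log2 difference, male minus female, was 0.59 (standard error 0.34, adjusted p = 0.501 by limma). It was 0.32 without female library 2, 0.89 without female library 1, 0.37 without male library 3 and 0.83 with the GC correction described below, and passed in none of these.

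mmu-miR-25-3p, the most abundant member, carries the miR-92a-3p seed. It was at 10705, 11780.0 and 9922 CPM in female pools 1, 2 and 3 and at 13573, 12995 and 14503 CPM in male pools 1, 2 and 3. The male libraries lay above the female libraries in CPM of the library total, but the sexes overlapped after TMM scaling, where female library 2 rose to 13336 CPM and male library 1 fell to 11859 CPM. Its log2 fold change by edgeR was 0.21 (standard error 0.23, adjusted p = 0.686). The minor arm, miR-25-5p, was at 27.2, 65.6 and 30.6 CPM in female pools 1, 2 and 3 and at 58.4, 58.9 and 48.2 CPM in male pools 1, 2 and 3. Female library 2 was the highest of the 6, and the other 2 female libraries were the lowest. Over all 6 libraries it had a log2 fold change by edgeR of 0.26 (standard error 0.36, adjusted p = 0.776), and without female library 2 it was 0.86 (adjusted p = 0.0172). miR-25-3p had between 179 and 393 reads for each read of miR-25-5p over the 6 libraries.

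Since the 3 precursors are thought to be cut from 1 primary transcript, miR-106b-5p, miR-93-5p and miR-25-3p were also compared with each other within libraries. For miR-106b this is the less abundant arm, as miR-106b-3p was higher in 6 of 6 libraries. Ratios of miR-106b-3p to miR-93-5p and to miR-25-3p were not among those compared. By edgeR, the log2 fold change was 0.41 for miR-106b-3p, 0.29 for miR-93-5p and 0.21 for miR-25-3p, and none of these passed the threshold. Reads of miR-106b-5p were 12.3, 9.88 and 13.5% of those of miR-93-5p in the female pools and 6.25, 6.06 and 5.20% in the male pools. The sexes did not overlap, with a 2.03-fold higher percentage in females (log2 difference -1.02, male minus female). Relative to miR-25-3p, miR-106b-5p was at 6.31, 3.67 and 7.35% in females and 3.05, 2.73 and 2.83% in males, again without overlap (log2 difference -0.95). By contrast, miR-93-5p had 51.3, 37.2 and 54.4% of the reads of miR-25-3p in females and 48.8, 45.0 and 54.5% in males, and the log2 difference of 0.07 was within the spread. Over the 6 ratios compared in the cluster, the two-sided exact permutation test gave p = 0.1 (Benjamini-Hochberg adjusted 0.2) for the ratio of the miR-106b arms and for miR-106b-5p against miR-93-5p and against miR-25-3p, and p from 0.3 to 0.8 (adjusted 0.45 to 0.8) for the other 3. The 3 ratios with the smallest p share miR-106b-5p and are not independent.

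**Figure D2:**
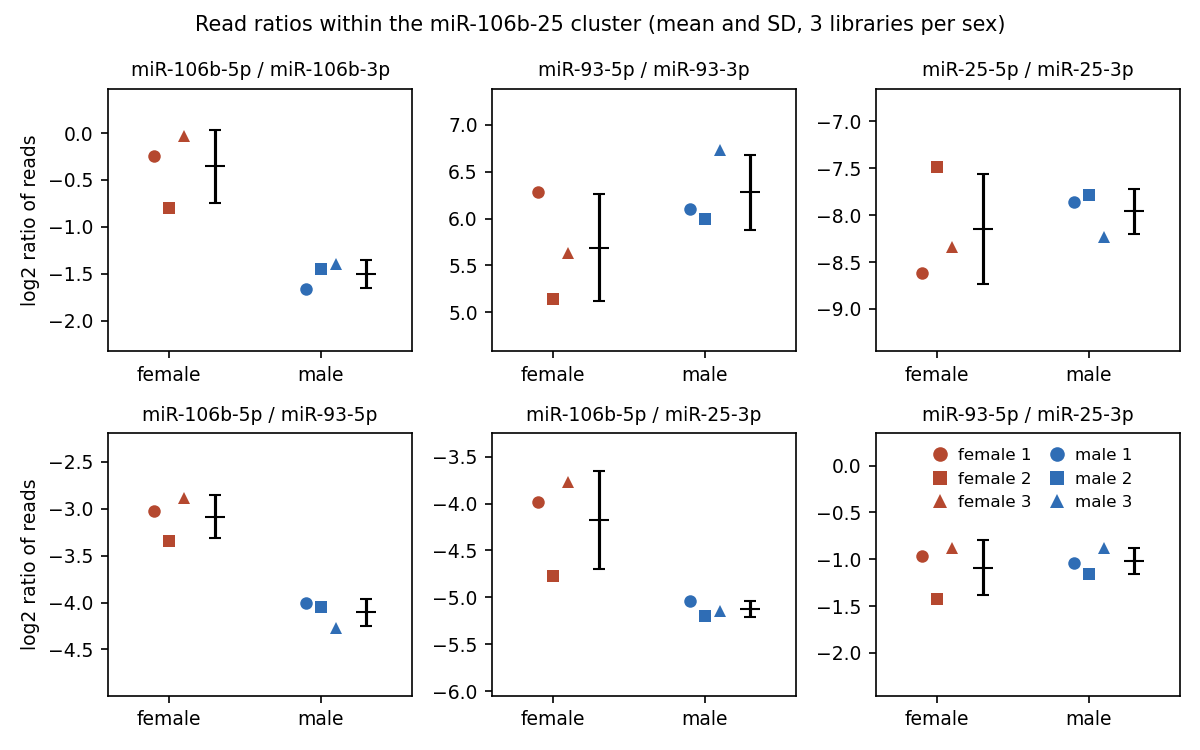
Log2 ratio of reads between arms and members of the miR-106b-25 cluster in each female (red) and male (blue) library, with the mean and SD (n = 3) beside the points; each panel spans the same range of log2 units. The 3 ratios with miR-106b-5p on top separate the sexes, with females higher, whereas miR-93-5p against miR-25-3p overlaps.

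Of the members of the X-linked miR-106a-363 cluster, miR-20b-5p and miR-106a-5p had the lowest mean levels of the 10, while miR-363-3p averaged 123 CPM. mmu-miR-20b-5p, with the miR-17-5p seed, was at 14.5, 18.3 and 17.2 CPM in female pools 1, 2 and 3 and at 6.21, 5.26 and 7.11 CPM in male pools 1, 2 and 3. These were 215, 1084 and 617 reads and 116, 231 and 168 reads, respectively. All female libraries lay above all male libraries, by 2.69-fold in mean CPM. Its log2 fold change of -1.57 (standard error 0.57) did not pass the threshold (adjusted p = 0.106 by edgeR). It passed in 6 of 18 alternatives, among them DESeq2 (adjusted p = 0.0121, where 11.5% of all miRNAs passed), the filter of at least 10 reads in every library (0.0170, where 17.6% passed), edgeR with 1 RUVr factor (0.00696, where 16.9% of all miRNAs passed) and the fit without female library 2 (0.0139). Its log2 fold change lay between -1.69 and -1.43 in all 18.

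mmu-miR-106a-5p, from the same cluster and with the same seed, was at 7.09, 8.56 and 9.33 CPM in female pools 1, 2 and 3. In male libraries 1, 2 and 3 it was at 0.428, 3.55 and 4.95 CPM, from 8, 156 and 117 reads. All female libraries lay above all male libraries, and male library 1 lay far below the other 5. The log2 fold change was -1.57 with a standard error of 0.95 (adjusted p = 0.417 by edgeR), and it was -1.05 without male library 1, -2.10 without male library 3 and -2.10 with a block for the replicate number. Relative to miR-17-5p, from which it is 1 base apart, its reads were 1.52, 2.81 and 1.62% in females and 0.124, 1.19 and 1.24% in males. For miR-20b-5p these percentages were 3.12, 6.01 and 3.00% in females and 1.80, 1.77 and 1.78% in males. The share that misread or ambiguous reads of miR-17-5p could contribute was not tested.

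The remaining member of the cluster, mmu-miR-363-3p, carries the seed of miR-92a-3p and was more abundant than the other 2. It was at 140.4, 88.1 and 151 CPM in female pools 1, 2 and 3 and at 104, 138 and 116 CPM in male pools 1, 2 and 3. The sexes overlapped, with female library 2 the lowest and female libraries 1 and 3 the highest. With a log2 fold change by edgeR of -0.18 (standard error 0.24, adjusted p = 0.753), it did not pass, and the value was -0.34 (adjusted p = 0.314) without female library 2. The 3 X-linked members thus had negative log2 fold changes of unequal size, apart from miR-363-3p with the GC offset described below, where it was 0.16, and a test of the difference between them was not run.

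mmu-miR-92b-3p, from a locus of its own, also carries the miR-92a-3p seed. It was at 5390.4, 9536 and 4781 CPM in female pools 1, 2 and 3, and at 7829.6, 7945 and 6954 CPM in male pools 1, 2 and 3. Female library 2 was the highest of the 6 and the other 2 female libraries were the lowest, as for miR-25-5p. By edgeR, the log2 fold change was 0.05 with a standard error of 0.26 (adjusted p = 0.959), and without female library 2 it was 0.51 (adjusted p = 0.0735). Relative to miR-92a-3p, its reads were 17.3, 18.6 and 21.1% in females and 21.2, 17.9 and 15.7% in males, so that this ratio in female library 2 was within the range of the other 5. Its 5p arm is less abundant, and the log2 5p/3p ratio of miR-92b differed by -1.06 between males and females (standard error 0.30, adjusted p = 0.184 by limma), which did not pass the threshold.

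Grouped by seed, the miR-17-5p family held 6 miRNAs with a read, of which 4 are members and the others are miR-17-5p and miR-20a-5p. Their summed level was 7311, 5625 and 7608 CPM in the female pools and 7853, 6874 and 9095 CPM in the male pools, with overlap between the sexes. Within that sum, miR-93-5p took 74.6 ± 3.48% in females and 85.4 ± 1.39% in males, miR-106b-5p 8.83 ± 1.01% and 4.98 ± 0.403%, miR-20a-5p 9.72 ± 1.63% and 5.09 ± 1.03%, and miR-17-5p 6.44 ± 1.07% and 4.38 ± 0.0390% (SD, n = 3 each). The 4 members together took 83.8 ± 2.66% in females and 90.5 ± 1.01% in males, and each male library lay above each female library. Among the 4, miR-93-5p alone had the larger mean share in males. Like miR-106b-5p, miR-20b-5p (0.250% in females and 0.0779% in males) and miR-106a-5p (0.124 and 0.0372%) had smaller ones. These shares were not corrected for base composition. The family with the miR-92a-3p seed held 5 miRNAs with a read and summed to between 37557 and 72750 CPM. In it, the members miR-25-3p, miR-92b-3p and miR-363-3p together took 34.4 ± 5.07% in females and 33.9 ± 2.50% in males (SD, n = 3 each), which did not differ beyond the spread, and miR-92a-3p took most of the rest. In that family, miR-25-3p alone took 21.7 ± 5.17% and 21.7 ± 1.72%.

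**Figure D3:**
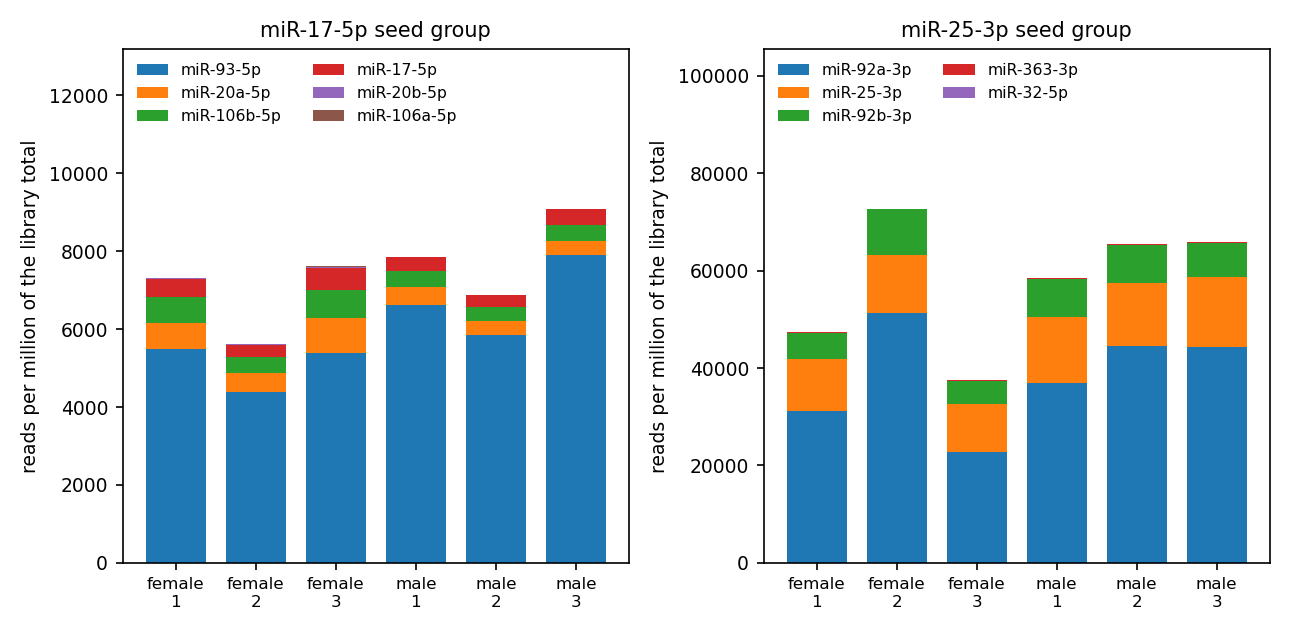
CPM of the library total of the miRNAs that share the seed of miR-17-5p (left) or of miR-25-3p (right), stacked per library. miR-93-5p makes up most of the left group in every library, with a larger share in males (85.4%) than in females (74.6%), and miR-92a-3p makes up most of the right group.

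The related miRNAs, namely the arms of miR-17-92, the remaining arms of the paralogous loci, miR-32 and miR-367, were 23 in number. Of these, 20 were tested and 4 were past the threshold by edgeR, all female-biased, against 5.27% female-biased among all miRNAs tested. They were miR-19b-3p (log2 fold change -1.76, adjusted p = 4.4e-05), miR-19a-3p (-2.50, adjusted p = 0.00089), miR-20a-5p (-0.88, adjusted p = 0.0063) and miR-18a-5p (-1.17, adjusted p = 0.0205). All 4 are arms of the miR-17-92 cluster, but miR-19b-3p is also cut from Mir19b-2 in the X-linked cluster, and its reads cannot be assigned to 1 of these loci. The median log2 fold change of the 20 was -0.72, with 14 below and 6 above 0. The count was 8 without female library 2 and 1 without male library 1. Of the relatives with a member's seed, miR-17-5p had -0.48 (adjusted p = 0.215 by edgeR), miR-92a-3p 0.11 (0.894) and miR-32-5p -3.09 (0.139), the last with no read in female library 2, and miR-367-3p had no read in any library.

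**Figure D4:**
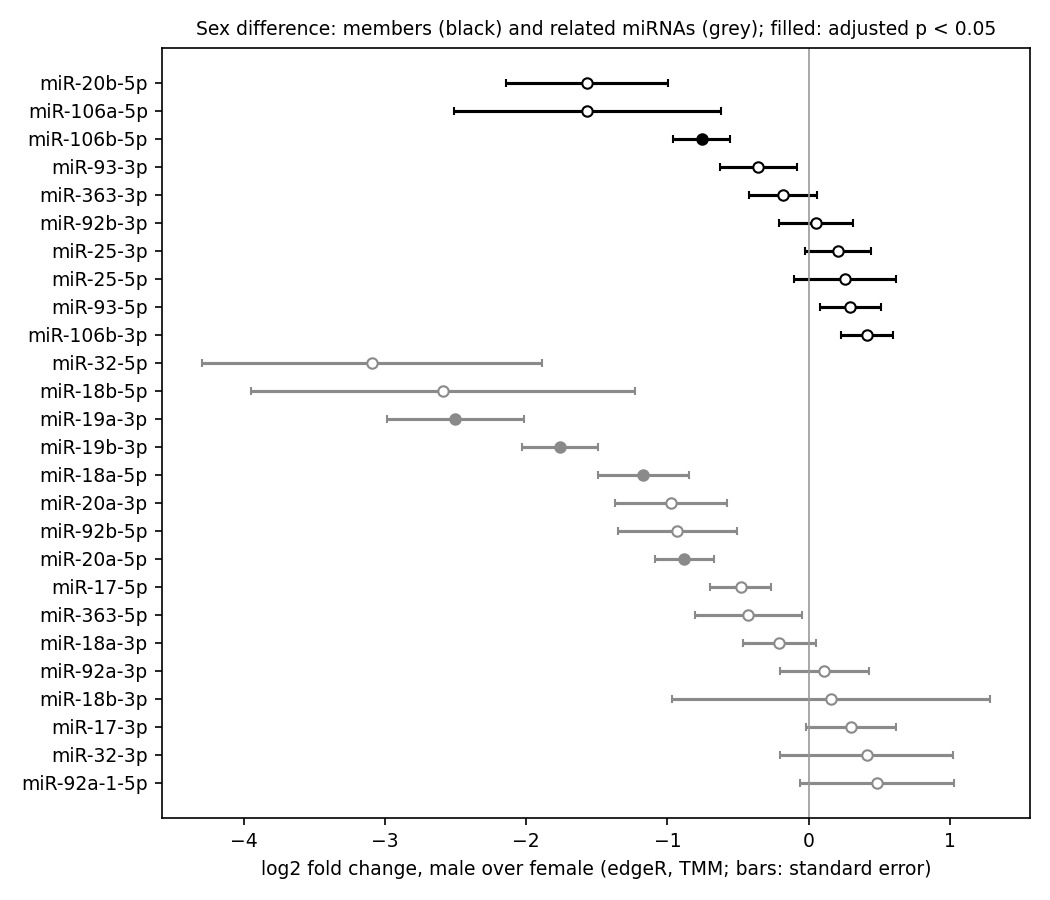
Log2 fold change, male over female, with its standard error (edgeR) for the 10 members (black) and for 16 of the 20 related miRNAs tested (grey); 4 with a standard error of 2 or more are not drawn, and filled points passed an adjusted p of 0.05. miR-106b-5p is the 1 filled member, at -0.76, whereas 5 of the members lie above 0.

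Fold changes over all miRNAs varied with base composition, and the part of base composition in the members' differences was examined with an offset only. Over the 474 miRNAs with a known mature sequence and on average 100 reads or more, the median log2 fold change was -0.82 for the 84 with a GC content under 40%, -0.24 for the 160 from 40 to under 50%, 0.16 for the 151 from 50 to under 60% and 0.21 for the 79 with 60% or more. Among the members, miR-106b-5p has a GC content of 42.9% and miR-106b-3p of 63.6%. The related miRNAs past the threshold have 34.8% (miR-19a-3p), 39.1% (miR-19b-3p and miR-20a-5p) and 43.5% (miR-18a-5p). When a GC offset per library was applied, which was decided once the data had been seen, miR-106b-5p had a log2 fold change of -0.50 (adjusted p = 0.156 by edgeR) and miR-106b-3p one of 0.033. In that fit 0 members passed, against 6.20% of all miRNAs. At the same setting without female library 2, where 14.3% of all miRNAs passed, 3 members did (miR-106b-5p, miR-20b-5p and miR-93-3p, with log2 fold changes of -0.52, -1.44 and -0.67). The difference in the miR-106b arm ratio was -1.15 after a GC correction of the ratios, as it was before it (adjusted p = 0.0841 by limma). This correction and the GC offset did not act alike on these arms. With the offset, miR-106b-5p went from -0.76 to -0.50 and miR-106b-3p from 0.41 to 0.033, so that the arms lay closer together. Why the corrections differ was not tested. miR-20b-5p had -1.60 with the GC offset.

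The miRNAs whose levels ran most alike to the main member of each locus were sought among the 552 others that averaged 100 reads or more, by the SD over the 6 libraries of the log2 ratio. For miR-25-3p they were miR-423-3p (SD 0.070), miR-425-5p (0.086) and miR-339-3p (0.087), where the median over all 552 was 0.52. For miR-363-3p they were miR-18a-3p (0.149), miR-381-3p (0.178) and miR-223-3p (0.185), with a median of 0.53. For miR-92b-3p they were miR-3099-3p (0.085), miR-125b-5p (0.107) and miR-1964-3p (0.107), with a median of 0.65. None of the 9 is a member, and miR-18a-3p is the 1 related miRNA among them.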

How the data were processed

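Small RNA-seq libraries (TruSeq Small RNA, HiSeq, 50 bp single-end) of 6 pools were analysed, 3 per sex. The authors trimmed adaptors with cutadapt 1.15, mapped reads with Bowtie 1.2.1 to miRBase v.21 and mm9, and quantified miRNAs with miRDeep2. They deposited raw counts per mature miRNA, without normalization. No molecular identifiers are named, so reads can include copies of 1 molecule. No 2 libraries held the same counts.

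From the counts, CPM of the library total was computed, and the sexes were compared with edgeR 4.0.16 (glmQLFTest, TMM, at least 10 reads summed over the 6 libraries, Benjamini-Hochberg over 1120 miRNAs). A standard error is |log2 fold change| / sqrt(F). Log2 ratios of arms (pseudocount 0.5, both arms with a mean of at least 10 reads) were tested with limma 3.58.1 over 254 precursors. R was version 4.3.3. The exact permutation test of 3 against 3 libraries has a smallest p of 0.1. Scripts were tested on simulated data.

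The members, lists and tests were chosen with earlier results of these data known. All members are named. Related miRNAs are named where past the threshold or sharing a member's seed, and also the 3 miRNAs most like the main member of each locus. Alternatives were other scalings and filters, DESeq2 1.42.0, 1 RUVr factor (written out from deviance residuals), a replicate block and each library left out, with GC corrections added after seeing the data (loess, span 0.75, for miRNAs with a sequence). Coordinates are of mm9 (NCBIM37, GENCODE vM1), in which all member hairpins match RefSeq.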

Additional observations from a re-analysis of the deposited data

How the results depend on the processing

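The number of members past the threshold, 1 of 10 by edgeR, changed in 12 of 18 alternatives. It was 0 with library size only, 2 with DESeq2, 2 with edgeR and 1 RUVr factor, 3 with DESeq2 and 1 RUVr factor and 2 with at least 10 reads in every library, where 9 members were tested because miR-106a-5p fell out. It was from 0 to 3 with each library left out in turn, with 3 without female library 2, 1 without male library 3 and 0 without any of the other 4. It was 0 with the GC offset and 3 with the GC offset without female library 2, both chosen after seeing the data. The related list, with 4 past the threshold, had 7 with DESeq2 and 1 RUVr factor, 1 to 8 with each library left out (1 without male library 1, 8 without female library 2), and 8 with the GC offset without female library 2. Over all miRNAs the count of 95 became 129 with DESeq2, 97 (of 550) with at least 10 reads in every library, 216 with DESeq2 and 189 with edgeR, each with 1 RUVr factor, 59 with the GC offset, 135 (of 944) with the GC offset without female library 2, and 30, 60 and 203 without male library 1, female library 3 and female library 2.

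No log2 fold change of the miR-106b arms, miR-93-3p, miR-20b-5p or miR-106a-5p changed sign in any alternative run. Sign changes occurred in 5 members with an absolute log2 fold change of at most 0.29. With the GC offset, miR-92b-3p had -0.32, miR-25-5p -0.18, miR-93-5p -0.10, miR-25-3p -0.023 and miR-363-3p 0.16, and with the GC offset without female library 2, miR-93-5p had -0.21 and miR-363-3p 0.18. miR-92b-3p also had -0.0093 with at least 10 reads in every library, and from -0.15 to 0.51 with each library left out, below 0 without female library 1, female library 3 or male library 2. The cause of these changes was not tested.

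In the arm test, the number of member precursors past the threshold was 0, and 0 to 1 with each library left out, 1 being reached without female library 2. Over all 254 precursors it was 0, and became 16 without female library 2 and 1 without female library 3. The miR-106b difference ranged from -1.37 to -0.99 when each library was left out. That of miR-25, 0.19, ranged from -0.047 (without female library 1) to 0.52 and was -0.24 with the GC correction. The miR-106b-5p ratios to miR-93-5p and to miR-25-3p kept their direction with a pseudocount of 5 reads and with each library left out, which were chosen after seeing the data. These settings do not address base composition. With the GC offset, the log2 fold changes of miR-106b-5p, miR-93-5p and miR-25-3p were -0.50, -0.10 and -0.023. Without it they were -0.76, 0.29 and 0.21, which lie further apart.

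Replicate numbers are shared by the sexes, and the labels do not say whether they pair the samples. Deviations from the group means of same-numbered libraries correlated at -0.08, 0.03 and 0.16 over 553 miRNAs. Libraries with different numbers gave -0.18 to 0.16. With 3 libraries per sex, these values cannot settle whether the samples were paired. With a replicate block, miR-106b-5p had a log2 fold change of -0.74 (adjusted p = 0.0166 by edgeR), 1 member was past the threshold, and the miR-106b arm difference had an adjusted p of 0.207 by limma. The low value of miR-106a-5p in male library 1 was outside counting error, with an exact 95% binomial interval of 0.185 to 0.844 CPM against lower bounds of 3.02 and 4.09 CPM in male libraries 2 and 3.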
